A study of Mus musculus with 77 samples.

Results

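The polyamine pathway was followed through 9 genes, chosen by name from what their products are known to do: Odc1, Amd1, Srm and Sms for synthesis, Oaz1, Oaz2 and Azin1 for control of Odc1, and Sat1 and Smox for breakdown. They are 9 of the 25266 genes in the count files. RNA and ribosome-protected fragments (RPFs, the short mRNA pieces shielded by translating ribosomes) were sequenced from the same 24 livers of adult male C57BL/6J mice. The mice belonged to 2 knockout lines that remove the iron regulatory proteins, RNA-binding proteins that act on mRNAs of iron metabolism. Livers were taken at ZT5, in the light, and at ZT12, when the lights go off (ZT is the time since lights on, in hours). There were 8 groups with 3 livers each, formed by Aco1+/+, Aco1-/-, Ireb2+/+ and Ireb2-/- at both time points. Aco1 encodes IRP1 and Ireb2 encodes IRP2, both deletions are whole-body, and the +/+ mice are the controls of their own line. No treatment other than the genotype was given. Light, feeding and clock time change together between the 2 time points and cannot be told apart here.

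Polyamines (putrescine, spermidine and spermine) are small positively charged molecules that bind RNA and are needed for growth and for translation, and the liver both makes and clears them. The pathway is known for feedback at the level of translation. High polyamine levels favour the ribosomal frameshift that yields antizyme, which sends ornithine decarboxylase to the proteasome, while upstream open reading frames repress Amd1 and Azin1, and the mRNA of Odc1 has a long structured leader.

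The CDS counts summed to between 852293 and 3993492 per RNA library and to between 2448915 and 13439600 per RPF library. Levels are given as CPM, CDS counts per 1000000 of the library after upper-quartile scaling, and compare livers but not genes, since no CDS lengths were used. The translation efficiency (TE) is the log2 ratio of RPF to RNA CPM. Aco1 footprints lay at 74.8 to 123.2 CPM in Aco1-/- livers and 347.1 to 591 CPM in Aco1+/+ livers. Ireb2 footprints lay at 32.5 to 41.2 CPM in Ireb2-/- livers and 62.3 to 81.4 CPM in Ireb2+/+ livers. RNA of the clock gene Per2 was at most 19.6 CPM at ZT5 and at least 23.1 CPM at ZT12, but RNA of the clock output gene Dbp at ZT5 was 4.20 to 43.7 CPM in the Aco1 line and 33.6 to 66.6 CPM in the Ireb2 line. The part of this in any result was not tested. Hepatocyte markers summed to a median of 142200 CPM at ZT5 and 148800 CPM at ZT12, Kupffer cell markers to 417 and 389 CPM, and leukocyte markers to 76.7 and 64.1 CPM, with Ptprc at 0 among the 3 measured. In whole liver, fewer cells of a type and less RNA per cell cannot be told apart, and p-values measure the spread between livers.

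Of the 9 genes, 7 had enough counts to be tested among 10696 genes. Amd1 and Sms did not, with 68 and 9 RNA counts in the CDS over all 24 livers, and were described from all transcript regions. A gene is called changed where edgeR's quasi-likelihood test gave a Benjamini-Hochberg adjusted p under 0.05 over all genes tested.

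Differences in RNA between the time points were called for most of the tested genes, and none was called between the genotypes. Over the 24 livers, RNA of 4 of the 7 tested genes was higher at ZT12 (Srm, Odc1, Sat1 and Azin1) and RNA of 1 was lower (Oaz1), against a background of 22.3% of all genes called for RNA. Footprints of 3 were higher (Srm, Odc1 and Azin1) and of none lower, against 31.8% of all genes. TE was called for none of the 7 by edgeR's quasi-likelihood test or by DESeq2 (2 had an unadjusted p under 0.05), with 0.496% of all genes called. The median log2 change of the 7 was 0.26 for RNA and 0.22 for RPFs, and that of all genes was -0.04 for both. For footprints, 3 of 7 is close to that background. The RNA calls of Azin1 and Sat1 were weak, lost in 13 and 18 of 31 alternative runs. Neither was called with RNA counted over all columns, where 31.6% of all genes were called.

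**Figure D1:**
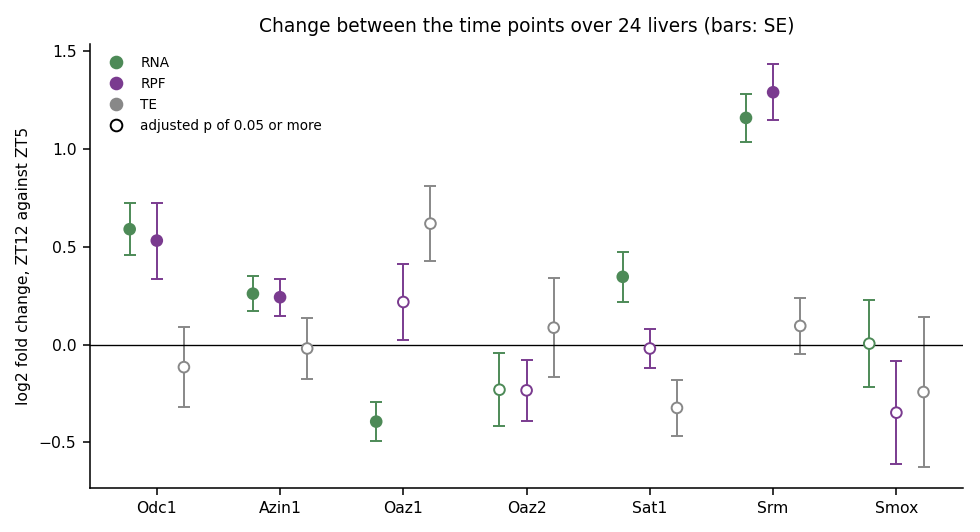
Log2 fold change of ZT12 against ZT5 over 24 livers (y axis) for RNA, RPF and TE of the 7 tested genes (x axis), with bars giving the SE and open circles an adjusted p of 0.05 or more. Srm is highest for RNA (1.16) and RPF (1.29), Oaz1 is the tested gene with RNA called lower (-0.39), and every TE circle is open.

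Odc1 encodes ornithine decarboxylase, which makes putrescine in the first step of the pathway and is usually its limiting enzyme. Its RNA ranged from 8.77 to 18.1 CPM at ZT5, with a median of 11.1, and from 11.4 to 31.5 CPM at ZT12, with a median of 17.4. All 12 ZT12 livers were above the ZT5 median, and 5 of the 12 were above the highest ZT5 liver. Odc1 RNA rose 1.505-fold, a log2 change of 0.59 (SE 0.13, edgeR quasi-likelihood adjusted p = 0.00085). Its footprints had a median of 2.25 CPM at ZT5 and 3.63 CPM at ZT12, with ranges of 1.36 to 5.57 and 2.17 to 6.27 that overlapped, and rose 1.45-fold (log2 0.53, SE 0.19, edgeR quasi-likelihood adjusted p = 0.0371).

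The footprint values of Odc1 are given for the genotypes with the lowest and the highest fitted change. In Aco1+/+ the 3 ZT5 livers gave 3.05, 5.57 and 1.36 CPM and the 3 ZT12 livers 3.62, 2.43 and 2.28 CPM, a lower mean. In Ireb2-/- the ZT5 values were 1.37, 1.81 and 2.04 CPM and the ZT12 values 3.81, 2.17 and 4.83 CPM, so that the time points did not overlap. The difference of the time effect between Aco1-/- and Aco1+/+ was 1.22 (adjusted p 0.881) and that between Ireb2-/- and Ireb2+/+ 0.42 (adjusted p 1), so that the genotypes were not shown to differ. No single genotype passed the test for Odc1 footprints (lowest adjusted p 0.0973, in Ireb2-/-, edgeR quasi-likelihood test). Only 451 footprint counts fell in the Odc1 CDS over all livers. The call over 24 livers was lost on leaving out any one of 13 livers (adjusted p up to 0.0940), with the replicate block and with one sequencing run alone (log2 change 0.33, adjusted p 0.355).

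Odc1 had the lowest TE of the 7 tested genes. Its mean log2 TE was -2.35 (SD 0.46, n = 24), which placed it at percentile 1.74 of all tested genes, whose median was 0.08. The 24 livers spanned -3.30 to -1.52, all below that median. The next lowest of the 7 was Azin1 at -1.26 (SD 0.45), at percentile 10.2, and its lowest livers reached down to -1.92, within the Odc1 range. Smox followed at -0.78 (percentile 19.9), Oaz2 at -0.53 (percentile 26.6), Oaz1 at -0.46 (percentile 28.8) and Sat1 at -0.22 (percentile 37.5). Srm, at 0.28 (SD 0.46, percentile 59.9), was the single tested gene of the pathway above the median of all genes. Neighbours from Smox to Oaz1 differed by less than the SD between livers, which was 0.87 for Smox and 0.65 for both antizymes. The CDS column held 12.7% of the RNA counts of Oaz1 and 17.2% of those of Oaz2, against a median of 52.3% over all tested genes. The TE of both antizymes thus rests on a small part of their RNA.

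**Figure D2:**
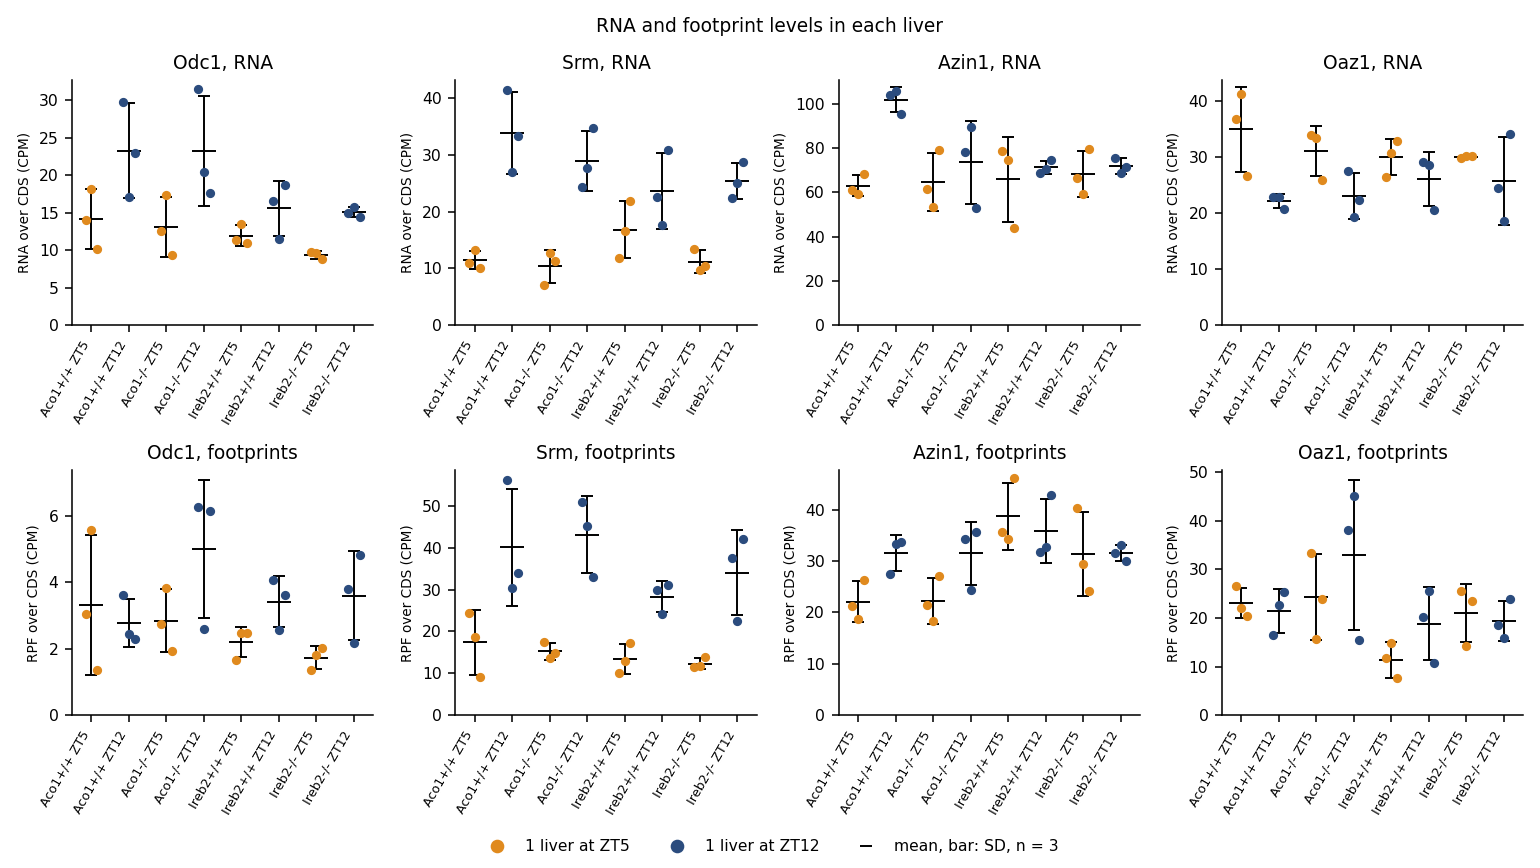
RNA and RPF levels in CPM (y axes, from 0) of pathway genes in each of the 8 groups (x axis), with a point for each liver, a line for the mean and a bar for the SD, n = 3. Srm footprints at ZT12 (22.6 to 56.1 CPM) lay above those at ZT5 (9.10 to 24.4 CPM) within each genotype.

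Amd1 encodes S-adenosylmethionine decarboxylase, which supplies the aminopropyl groups for spermidine and spermine. Its reads fell mostly outside the CDS column: of 497 RNA counts over 24 livers, 407 were in the 3' UTR column, 68 in the CDS and 15 in the 5' UTR, so that the CDS held 13.7% of its counts against a median of 52.3% over all tested genes. Footprints were nearly absent, with 1 count in the CDS and 12 in the 5' UTR. Amd2, a near-identical copy, carried 120 footprint counts and 29 RNA counts in its 5' UTR column and none in its CDS. Reads that fit both copies may have been split or dropped, and TE and the 5' UTR ratio of Amd1 are therefore not given.

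Over all transcript regions, Amd1 RNA was higher at ZT12 in every genotype. At ZT5 the livers gave 2.17, 1.81 and 2.40 CPM in Aco1+/+, 2.56, 3.79 and 2.51 CPM in Aco1-/-, 1.32, 1.94 and 0.994 CPM in Ireb2+/+, and 1.34, 1.94 and 2.50 CPM in Ireb2-/-. At ZT12 they gave 5.39, 5.25 and 8.47 CPM in Aco1+/+, 7.11, 7.04 and 5.83 CPM in Aco1-/-, 7.52, 4.53 and 3.52 CPM in Ireb2+/+, and 6.42, 2.47 and 4.04 CPM in Ireb2-/-. The time points did not overlap in 3 of 4 genotypes, the exception being Ireb2-/-, and 10 of the 12 ZT12 livers were above the highest ZT5 liver.

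The Amd1 rise was 2.72-fold, a log2 change of 1.44 (SE 0.18, edgeR quasi-likelihood adjusted p = 2.82e-07), in a fit over all columns that called 31.6% of 11310 genes. A permutation test of the log2 level over the 24 livers gave p = 4e-05. By genotype the log2 change was 1.61 in Aco1+/+ (adjusted p 0.00204), 1.11 in Aco1-/- (0.0216), 1.86 in Ireb2+/+ (0.0178) and 1.18 in Ireb2-/- (0.104, above the threshold). From the 3' UTR column alone, a choice made after seeing the data, it was 1.51 (edgeR quasi-likelihood adjusted p = 6.25e-07). In the same fit over all columns Srm (log2 1.14), Odc1 (0.50) and Oaz1 (-0.33) were called as well, but Azin1 (0.21, adjusted p 0.0508) and Sat1 (0.03, adjusted p 0.843) were not.

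**Figure D3:**
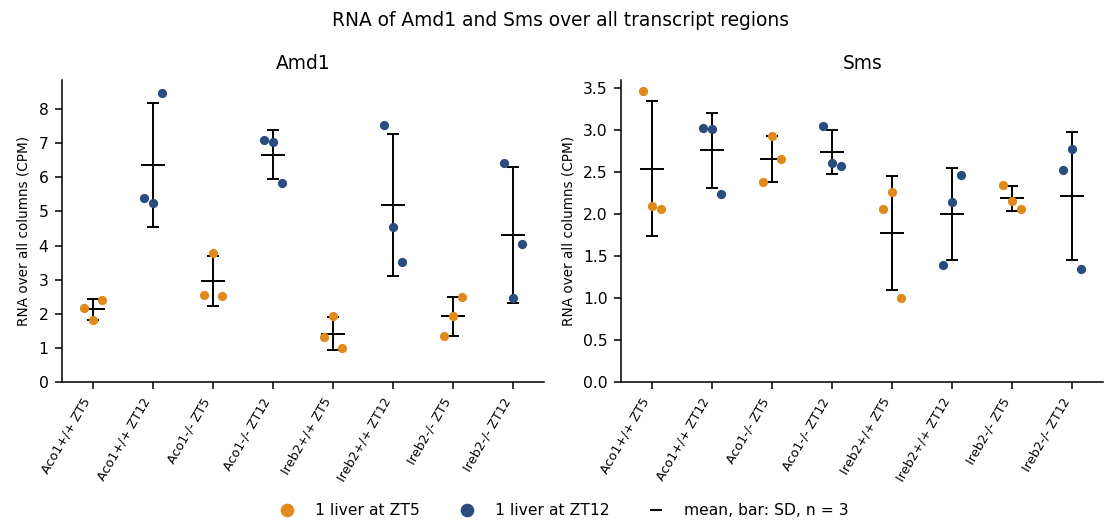
RNA level over all transcript regions in CPM (y axes, from 0) of Amd1 and Sms in each of the 8 groups (x axis), with a point for each liver, a line for the mean and a bar for the SD, n = 3. Amd1 lay at 0.994 to 3.79 CPM at ZT5 and 2.47 to 8.47 CPM at ZT12, whereas Sms covered 0.994 to 3.47 CPM at ZT5 and 1.35 to 3.05 CPM at ZT12.

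Srm encodes spermidine synthase, which adds an aminopropyl group to putrescine, and it changed most among the tested genes. At ZT5 its RNA was 10.98, 13.3 and 10.1 CPM in Aco1+/+, 7.14, 12.7 and 11.3 CPM in Aco1-/-, 11.9, 16.6 and 21.9 CPM in Ireb2+/+, and 13.4, 9.66 and 10.4 CPM in Ireb2-/-. At ZT12 it was 41.5, 26.9 and 33.3 CPM, 24.4, 27.7 and 34.9 CPM, 22.6, 17.6 and 30.9 CPM, and 22.4, 25.1 and 28.8 CPM in the same order of genotypes. Every group of 3 was separate from its ZT5 counterpart except in Ireb2+/+, where 1 ZT12 liver at 17.6 CPM lay below the ZT5 liver at 21.9 CPM. Srm RNA rose 2.23-fold over the 24 livers (log2 1.16, SE 0.12, edgeR quasi-likelihood adjusted p = 1.35e-09).

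Srm footprints followed. At ZT5 they were 24.4, 18.8 and 9.10 CPM in Aco1+/+, 17.5, 13.6 and 14.7 CPM in Aco1-/-, 10.1, 12.8 and 17.3 CPM in Ireb2+/+, and 11.52, 11.6 and 13.8 CPM in Ireb2-/-. At ZT12 they were 56.1, 30.4 and 33.9 CPM, 50.9, 45.2 and 33.1 CPM, 29.8, 24.1 and 31.1 CPM, and 37.5, 22.6 and 42.1 CPM. The time points did not overlap in any of the 4 genotypes. The rise was 2.44-fold (log2 1.29, SE 0.14, edgeR quasi-likelihood adjusted p = 6e-07), and the TE difference was 0.10 (SE 0.14, adjusted p 0.910).

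Sms encodes spermine synthase, which makes spermine from spermidine. It had 273 of its 307 RNA counts in the 3' UTR column and 16 footprints in the CDS. Over all columns its RNA had a median of 2.21 CPM at ZT5 and 2.55 CPM at ZT12, and the log2 change was 0.07 (SE 0.18, edgeR quasi-likelihood adjusted p = 0.792). The ranges of the time points overlapped almost fully, unlike those of Amd1 at a like depth.

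The E-box CACGTG, the letters bound by the clock factors CLOCK and BMAL1 and by MYC, was looked for in the RefSeq promoters (build GRCm38.p6, 250 bases before to 50 after the start, both strands, a palindrome). The table held 8 windows for 7 of the 9 genes, without Srm and Azin1. The motif was in 1 of them, that of Sms, against 7.15% of all 32851 windows. Whether the motif bears on the RNA of any of these genes was not tested. The Sms stretch is shown as the only match, at chrX:157492466-157492495 on the minus strand. The motif is in capitals, with its first base at -196 from the start.
Sms: cccagcggggttCACGTGcatttaaagaaa

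Oaz1 encodes antizyme 1, the main inhibitor of ornithine decarboxylase. Its RNA ranged from 26.0 to 41.3 CPM at ZT5, with a median of 30.5, and from 18.5 to 34.1 CPM at ZT12, with a median of 22.9. At ZT12, 8 of 12 livers were below the lowest ZT5 liver. Oaz1 RNA fell by 0.39 on the log2 scale (SE 0.10, edgeR quasi-likelihood adjusted p = 0.00278), to 0.761 of its ZT5 level.

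No time difference was called for Oaz1 footprints. They spanned 7.55 to 33.3 CPM at ZT5 and 10.7 to 45.1 CPM at ZT12, with almost the same median (21.3 and 21.4 CPM), and the log2 difference was 0.22 (SE 0.19, adjusted p 0.429). The TE of Oaz1 was -0.75 (SD 0.60, n = 12) at ZT5 and -0.16 (SD 0.58, n = 12) at ZT12, with 11 of 12 ZT12 livers above the ZT5 median. The fitted TE difference by genotype was uneven, at 0.92 (SE 0.26) in Ireb2+/+, 0.82 (SE 0.37) in Aco1-/-, 0.58 (SE 0.37) in Aco1+/+ and 0.14 (SE 0.26) in Ireb2-/-, and none passed over all genes. Between Ireb2-/- and Ireb2+/+ these differed by -0.78 (SE 0.36, edgeR quasi-likelihood adjusted p = 0.909). Over the 24 livers the fitted TE difference was 0.62 (SE 0.19), which did not pass over all genes (edgeR quasi-likelihood adjusted p = 0.209). A permutation test of this single value over the 24 livers gave p = 0.00613. Without Aco1-/- ZT12 replicate 3, whose TE of -0.52 was the lowest of the Aco1 line at ZT12, the difference was 0.75 and passed (adjusted p 0.00714). Leaving out any other liver gave no call, and neither did the 9 other alternatives. The lowest TE of the 24 livers, -2.12, was that of Ireb2+/+ ZT5 replicate 3. Across the 24 livers, RNA and footprint levels of Oaz1 had a Pearson r of 0.02, beside 0.06 for Azin1, -0.13 for Oaz2, 0.33 for Sat1, 0.42 for Smox, 0.67 for Odc1 and 0.81 for Srm, as a description over libraries that share both time points. How the frameshifted reading frame of Oaz1 was annotated for counting is not given in the sources used here. Its CDS column held 12.7% of its RNA counts, which limits the reading of its TE.

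Oaz2 encodes a further antizyme and had 324 RNA and 494 footprint counts in the CDS. Its RNA had a median of 5.23 CPM at ZT5 and 4.19 CPM at ZT12 (log2 change -0.23, SE 0.19, adjusted p 0.411), and its footprints 3.18 and 3.43 CPM (log2 change -0.23, SE 0.16, adjusted p 0.268). The ranges of both overlapped between the time points.

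Azin1 encodes antizyme inhibitor 1, a relative of ornithine decarboxylase without its activity, which binds antizyme in its place. Its RNA ranged from 43.9 to 79.8 CPM at ZT5 and from 52.8 to 106 CPM at ZT12, with 4 of 12 ZT12 livers above the highest ZT5 liver. The rise was 1.20-fold (log2 0.26, SE 0.09, edgeR quasi-likelihood adjusted p = 0.0330). Footprints had a median of 26.7 CPM at ZT5 and 32.9 CPM at ZT12 and rose 1.18-fold (log2 0.24, SE 0.09, edgeR quasi-likelihood adjusted p = 0.0489), but no ZT12 liver was above the highest ZT5 liver, at 46.2 CPM in Ireb2+/+. Both calls were lost on leaving out many single livers, 11 of 24 for RNA and 16 of 24 for RPFs, and the RNA call also with the replicate block.

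The Azin1 rise was seen in RNA of the Aco1+/+ livers, from 61.1, 59.5 and 68.5 CPM at ZT5 to 104, 106 and 95.6 CPM at ZT12, with no overlap. It was 1.63-fold there (log2 0.70, SE 0.17, edgeR quasi-likelihood adjusted p = 0.00861), and the adjusted p rose to 0.0504 and 0.0700 on leaving out a single ZT5 liver (replicate 1 or 2). In the other genotypes the log2 difference was 0.17 in Aco1-/-, 0.10 in Ireb2+/+ and 0.07 in Ireb2-/-, none called. The difference of the time effect between Aco1-/- and Aco1+/+ was -0.53 (SE 0.25, adjusted p 0.839), so that the genotypes were not shown to differ.

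Sat1 encodes the acetyltransferase that marks spermidine and spermine for export or oxidation. Its RNA had a median of 14.1 CPM at ZT5 and 17.8 CPM at ZT12 and rose 1.27-fold (log2 0.35, SE 0.13, edgeR quasi-likelihood adjusted p = 0.0456), with 3 of 12 ZT12 livers above the highest ZT5 liver. Footprints had medians of 13.1 and 12.9 CPM (log2 difference -0.02, SE 0.10, adjusted p 0.908), and the TE difference was -0.32 (SE 0.14, adjusted p 0.445). The RNA call was lost without any one of 15 livers and was absent when all transcript regions were counted, where the change was 0.03. Smox encodes spermine oxidase and was the scarcest tested gene, with 155 RNA and 191 footprint counts. Its RNA had medians of 2.50 and 2.06 CPM (log2 difference 0.01, SE 0.22), and its footprints 1.42 and 1.38 CPM (log2 difference -0.35, SE 0.26), neither called.

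Within single genotypes, with 3 livers against 3, most calls were of Srm. For RNA, 2 genes were higher and 1 lower in Aco1+/+ (7.05% of all genes called), namely Srm (log2 1.51), Azin1 (0.70) and Oaz1 (-0.69, adjusted p 0.0260). For Aco1-/- RNA, Srm was called at 1.47 (5.15% of all genes), for Ireb2-/- RNA at 1.17 (2.77% of all genes), and for Ireb2+/+ RNA no gene was by edgeR or by DESeq2, also at an unadjusted p under 0.05 (2.31% of all genes), where Srm gave 0.50 (SE 0.25, adjusted p 0.348). The Oaz1 call in Aco1+/+ RNA was lost without any ZT12 liver or without ZT5 replicate 1 or 2 (adjusted p up to 0.253), and also with DESeq2, with RNA over all columns and with one sequencing run alone (log2 change as small as -0.32, adjusted p up to 0.597). The Srm call in Ireb2-/- RNA was lost without ZT5 replicate 2 (adjusted p 0.0619).

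Srm was the one pathway gene called for RPFs in each of the 4 genotypes. Its log2 change was 1.12 in Aco1+/+ (SE 0.29, adjusted p 0.0297, with 6.64% of all genes called) and 1.48 in Aco1-/- (SE 0.29, adjusted p 0.00528, 12.1% of all genes). It was 1.09 in Ireb2+/+ (SE 0.21, adjusted p 0.00449, 7.54% of all genes) and 1.48 in Ireb2-/- (SE 0.23, adjusted p 0.00123, 5.71% of all genes). In Aco1+/+ the call was lost without ZT12 replicate 1 (the liver at 56.1 CPM) or without ZT5 replicate 2, with adjusted p up to 0.120. TE gave no pathway gene in any genotype by edgeR or DESeq2 (2, 2, 2 and 0 genes at an unadjusted p under 0.05), against 0.0187% of all genes called in Aco1+/+, 0.15% in Aco1-/-, 0.533% in Ireb2+/+ and 0.00935% in Ireb2-/-.

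The 5' UTR of an mRNA carries footprints where ribosomes translate upstream open reading frames or pause at the start. The 5' UTR to CDS count ratio was computed for RPFs and for RNA of the same liver, so that each gene's footprints could be set beside its own RNA. Pooled over all livers, the ratio had a median of 8.21% in footprints and 13.96% in RNA over the 3149 genes with enough 5' UTR footprints to be tested. Azin1 had 3499 footprints in the 5' UTR and 4517 in the CDS, a ratio of 77.5% against 24.4% in RNA, and Sat1 had 1756 and 1953, a ratio of 89.9% against 16.6% in RNA. These ratios were at percentiles 95.9 and 96.8 of 3149 genes with enough 5' UTR counts, and those of footprints over RNA, 3.18 and 5.41, were at percentiles 96.0 and 98.6 (median 0.55).

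The excess held liver by liver. Sat1 footprints gave 46.5 to 164% with a median of 89.3%, and Sat1 RNA 2.13 to 47.4% with a median of 16.0%. The footprint ratio exceeded that of RNA in 24 of 24 livers, which was so for 2.79% of the 3149 genes. Azin1 footprints gave 37.3 to 133.9% with a median of 86.6%, and Azin1 RNA 18.4 to 50.3% with a median of 24.4%. Here 23 of 24 livers had the higher ratio in footprints, and the exception, Ireb2+/+ ZT5 replicate 3, had 37.3% in footprints and 50.3% in RNA. That liver also had the lowest 5' UTR share of all RPF libraries, 1.28% of CDS counts where the others reached up to 3.42%.

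**Figure D4:**
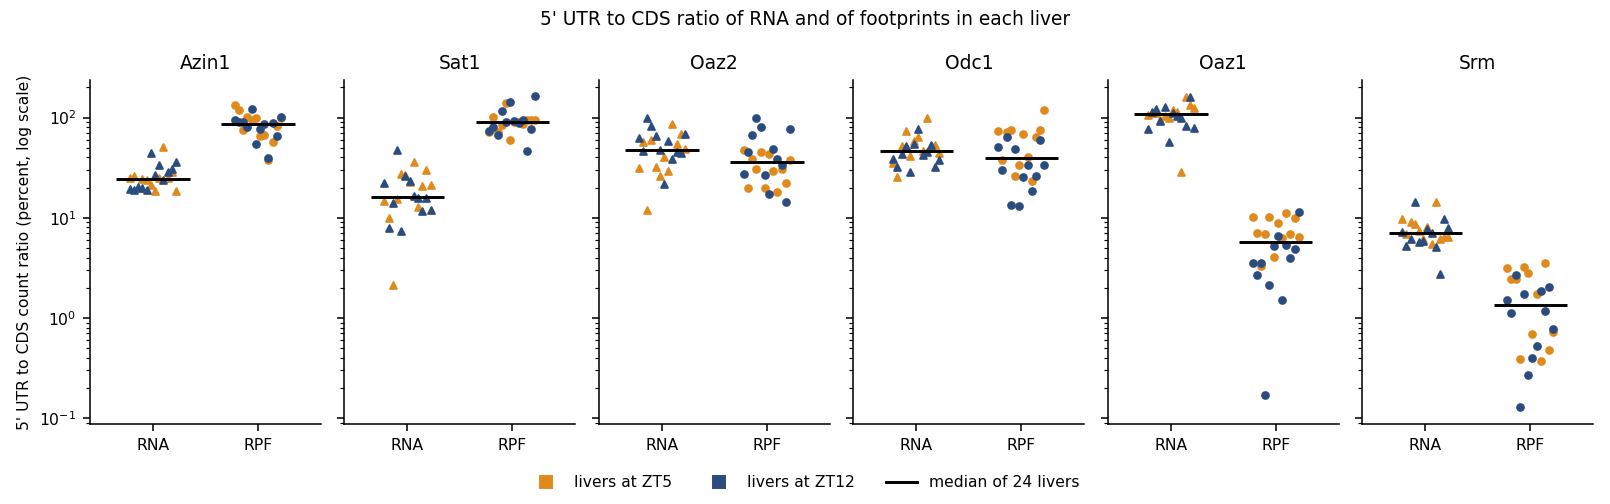
5' UTR to CDS count ratio in percent (y axis, log scale) of RNA and of RPFs (x axis) for pathway genes in each of the 24 livers, coloured by time point, with black lines for the median of the 24 livers and 0.5 added to each count. Footprints lie above RNA for Azin1 (medians 86.6 and 24.4%) and Sat1 (89.3 and 16.0%) and below it for Oaz1 (5.77 and 108.1%).

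Oaz1 and Srm lay at the other end. Oaz1 had 5.00% in footprints and 106% in RNA, and Srm had 1.05 and 6.05%. A footprint ratio below that of RNA was the usual case among the 3149 genes with enough 5' UTR footprints (median 0.55). Neither Oaz1 nor Srm had enough to be among them, so that neither was ranked. Odc1 was level, at 38.7% in footprints and 44.7% in RNA, with the footprint ratio above that of RNA in 12 of 24 livers, as was Oaz2 at 37.9 and 45.5%, with 8 of 24. Smox had 14 footprints in its 5' UTR and is given no ratio between the assays. The Oaz1 RNA ratio depends on where the annotation places the start of the reading frame.

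No 5' UTR to CDS ratio changed with time by the test over genes (0.667% of 3149 genes called, of which none of Azin1, Oaz2 and Sat1, the pathway genes with enough counts). The log2 differences were -0.05 for Azin1, 0.58 for Oaz2 and 0.03 for Sat1. With no filter on low counts, Oaz1 gave -1.11 (SE 0.33, edgeR quasi-likelihood adjusted p = 0.163) from 151 footprints in the 5' UTR, and Odc1 gave -0.93 (SE 0.36, edgeR quasi-likelihood adjusted p = 0.383) from 174. Odc1 footprint ratios had a median of 65.8% at ZT5 and 31.5% at ZT12, and all 12 ZT12 livers were below the ZT5 median, in ranges of 23.1 to 119% and 13.0 to 64.1% that overlapped. A permutation test over the 24 livers gave p = 0.00996 for Odc1 and p = 0.00343 for Oaz1, each as a single value. Over all genes the 5' UTR share of RPF counts also differed, with a median of 2.39% of CDS counts at ZT5 and 2.01% at ZT12. The mean share was lower at ZT12 in Aco1+/+ (2.79 and 2.31%), Aco1-/- (2.81 and 1.83%) and Ireb2-/- (2.39 and 2.21%) but higher in Ireb2+/+ (1.71 and 2.11%), with no test of these differences, of which that in Aco1-/- alone was larger than the SD between livers of both groups. The part of the share in the Odc1 and Oaz1 ratios was not tested.

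No gene of the pathway was called between knockout and control livers. At ZT5, Aco1-/- against Aco1+/+ called 0% of all genes for RNA, 0.00935% for RPFs, 0.00935% for TE and 0% for the 5' UTR ratio. At ZT12 the same comparison called 0.00935% for RNA, 0.299% for RPFs, 0.0935% for TE and 11.8% for the 5' UTR ratio. Ireb2-/- against Ireb2+/+ called 0.00935, 0.0654, 0.00935 and 0% in that order at ZT5, and 0.0187, 0.028, 0 and 0% at ZT12. The pathway gave 0 of 7 genes for RNA, RPFs and TE and 0 of 3 for the ratio in each of these, with the same 0 by DESeq2 for RNA, RPFs and TE. At an unadjusted p under 0.05 in edgeR, none of the 7 passed in Aco1-/- at ZT5 or in Ireb2-/- at ZT12, while 1 (RNA), 1 (RPF) and 2 (TE) passed in Aco1-/- at ZT12 and 1 in each measure in Ireb2-/- at ZT5. Apart from the 5' UTR ratio in the Aco1 line at ZT12, so few genes were called that a count of 0 says little about the pathway itself. For that ratio, 0 of 3 stands beside 11.8% of all genes, and 3 genes are too few to read a difference from it.

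**Figure D5:**
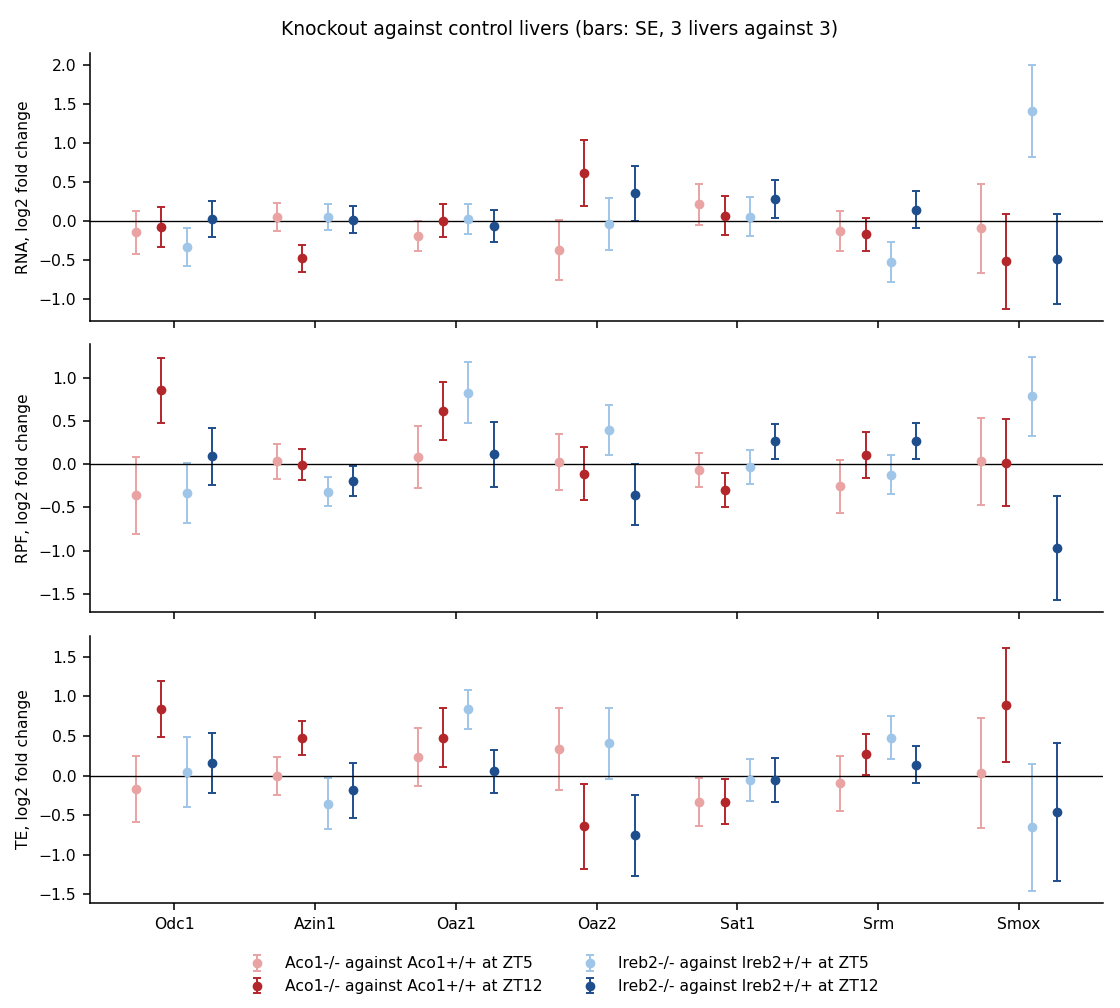
Log2 fold change of knockout against control livers (y axes) for RNA, RPF and TE of the 7 tested genes (x axis) in both lines at both time points, with bars giving the SE, 3 livers against 3. No value passed the test, and the farthest from 0 is Smox RNA in Ireb2-/- at ZT5 (1.40, SE 0.59).

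Among the differences with an unadjusted p under 0.05 were these. Azin1 RNA at ZT12 was 78.3, 89.7 and 52.8 CPM in Aco1-/- and 104, 106 and 95.6 CPM in Aco1+/+, without overlap, a log2 difference of -0.48 (SE 0.17, edgeR quasi-likelihood adjusted p = 0.495). Odc1 footprints at ZT12 were 6.27, 2.60 and 6.14 CPM in Aco1-/- and 3.62, 2.43 and 2.28 CPM in Aco1+/+, with overlap, a log2 difference of 0.86 (SE 0.38, edgeR quasi-likelihood adjusted p = 0.360). The TE of Odc1 there differed by 0.85 (SE 0.35, edgeR quasi-likelihood adjusted p = 0.638).

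In the Ireb2 line, Oaz1 TE at ZT5 was -0.23, -1.09 and -0.37 in Ireb2-/- and -1.18, -1.06 and -2.12 in Ireb2+/+, values that overlap by 1 liver. The difference was 0.84 (SE 0.24, edgeR quasi-likelihood adjusted p = 0.427). Ireb2+/+ ZT5 replicate 3, at -2.12, is the library with the lowest 5' UTR share. Smox RNA at ZT5 was higher in Ireb2-/- (2.69, 4.62 and 2.47 CPM) than in Ireb2+/+ (0.828, 1.23 and 1.73 CPM), without overlap, by 1.40 (SE 0.59, edgeR quasi-likelihood adjusted p = 0.835). For 3 livers against 3 an exact permutation test cannot give a p below 0.1.

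The 5' UTR to CDS footprint ratio at ZT12 differed between Aco1-/- and Aco1+/+ livers over many genes, with a median log2 difference of -0.39. Sat1 went the other way by value, at 0.64, but was not called (edgeR quasi-likelihood adjusted p = 0.220). Its footprint ratios were 117, 89.3 and 142% in Aco1-/- and 74.1, 80.1 and 66.5% in Aco1+/+, without overlap. The RPF libraries of those groups had 5' UTR shares of 1.83% (SD 0.24, n = 3) and 2.31% (SD 0.28, n = 3) of CDS counts, and the part of this in the Sat1 values was not tested. The difference between the genotype effects at ZT12 and ZT5 was called for no pathway gene in either line by edgeR or DESeq2, with 1, 0 and 0 genes at an unadjusted p under 0.05 in the Aco1 line and 1, 1 and 1 in the Ireb2 line. In the Aco1 line it was called for 0, 0 and 0.028% of all genes (RNA, RPFs and TE), and in the Ireb2 line for 0, 0 and 0%.

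Of 25 further genes around the pathway, 21 were tested. They include enzymes that feed it with S-adenosylmethionine, recycle the methylthioadenosine it leaves, make hypusine from spermidine on Eif5a, or move polyamines. Over the 24 livers RNA of 4 was higher at ZT12 and of 4 lower, and footprints of 4 were higher and of 5 lower, against 22.3% of all genes called for RNA and 31.8% for RPFs, with a median log2 change of -0.03 for RNA and -0.01 for RPFs. Ahcy, which clears S-adenosylhomocysteine, rose in RNA (0.39) and footprints (0.65), and Dhps, which makes the first step of hypusine, rose by 0.40 and 0.29. The polyamine transporter Atp13a3 rose by 0.30 and 0.22, and Eif5a itself rose in RNA (0.23).

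Of the genes that fell, Oat, which turns ornithine towards glutamate, fell by 0.41 in RNA and by 0.34 in footprints, and Sat2, a relative of Sat1, fell by 0.54 and by 0.64. Agmat, which makes putrescine from agmatine, fell by 0.19 and by 0.23, and RNA of Paox, the oxidase of acetylated polyamines, fell by 0.51. Footprints of Mtap, which recycles methylthioadenosine, fell by 0.44 and those of Mat2b, a regulator of S-adenosylmethionine synthesis, by 0.28. TE was called for none of the 21 by edgeR. Between Aco1-/- and Aco1+/+ at ZT12 the 5' UTR ratio was called for Oat (1.43) and Atp13a3 (-1.16), of 7 of these genes tested for it and against 11.8% of all genes, and no other call was made between genotypes.

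Footprint levels over the 24 livers were compared across 10529 genes as a description, with libraries that share time, line and depth. The genes most like Odc1 were Slc25a38 (Pearson r 0.81), Cox7a2l (0.77) and Dcun1d2 (0.73). Among those most like Azin1 were Akap9 (0.82) and Mdn1 (0.81), and those most like Oaz1 were Ndufa11 (0.79), Atp5l (0.78) and Rbpms2 (0.78). Amd1 had too few footprints to be placed. Within the pathway, Odc1 and Srm varied most alike (r 0.71 in RNA and 0.66 in footprints), while Oaz1 and Srm had an r of -0.62 in RNA and 0.315 in footprints.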

How the data were processed

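The authors deposited gene counts for each sequencing run, made after adapter trimming with cutadapt 3.5, removal of rRNA and tRNA reads with Bowtie2 and alignment with STAR 2.70f. The meaning of the count columns and the strand setting are not given in the sources used here, and the columns were read from their values as 5' UTR, CDS and 3' UTR. Runs of one library were summed (77 files, 48 libraries). RNA, RPF, TE (both assays in one model) and the 5' UTR to CDS ratio were tested with edgeR 4.0.16 (quasi-likelihood, upper-quartile scaling, R 4.3.3) within each line and over all 24 livers, after a filter at 10 counts, with Benjamini-Hochberg adjustment over all genes tested. Single values were tested with 100000 permutations. On simulated counts for ZT12 against ZT5 over 24 livers, 97% of 2-fold changes were recovered for RNA, 93% for RPF and 76% for TE (10696 genes). The simulation gave every gene the same spread and held no differences between lines, genotypes or mice. These rates may thus not hold for the real livers, and changes under 2-fold were not simulated. Alternatives were TMM, DESeq2 1.42.0, other filters and prior counts, one sequencing run, all columns for RNA, the replicate block and each liver left out. The text names the 9 members, other pathway genes past the threshold and, of the 3 genes nearest to each of Odc1, Azin1 and Oaz1, those reported here. Some genes that this rule would name are not reported here. The members and lists were chosen with earlier results of these data known. Promoters are from RefSeq (GRCm38.p6).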

Additional observations from a re-analysis of the deposited data

Results flagged for a closer look

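Signals of 3 genes lay in counts that the CDS comparisons did not use. Amd1 had 407 RNA counts in its 3' UTR column over the 24 livers, against 68 in the CDS, and Sms had 273 against 9, so that both genes are absent from tests on the CDS while their RNA was present. Amd2, the near-identical copy of Amd1, had 120 footprint counts in its 5' UTR column and none in its CDS. All lie above the 3 counts that an empty column allows. Groups of 3 livers are too small for a check of single livers that stand apart.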

How the results depend on the processing

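No called change reversed in any alternative run. Where no pathway gene was called and almost no gene was called anywhere, a count that stays at 0 says nothing about stability. With sequencing run 340 alone, 3 genes were called for RNA over 24 livers and 1 for RPFs, in place of 5 and 3. With RNA counted over all columns, 2 genes were called in Aco1-/-, 1 in Ireb2+/+ and 2 in Ireb2-/-, in place of 1, 0 and 1. Amd1, too low in CDS counts to be tested there, was gained in Aco1+/+, Aco1-/- and Ireb2+/+, and Odc1 in Ireb2-/- (log2 0.65, adjusted p 0.0473). The count of 3 in Aco1+/+ stayed the same with Amd1 (adjusted p 0.00204) in place of Oaz1 (adjusted p 0.103). With no filter, TE of 1 gene (Oaz1) was called in Ireb2+/+. Leaving out one liver at a time gave 3 to 5 genes for RNA and 1 to 3 for RPFs over 24 livers and 0 to 1 for TE. By genotype it gave 1 to 3 (RNA) and 0 to 2 (RPF) in Aco1+/+, 1 to 2 (RPF) and 0 to 1 (TE) in Aco1-/-, 0 to 1 (TE) in Ireb2+/+, and 0 to 1 (RNA) and 1 to 2 (RPF) in Ireb2-/-. The cause was not tested, beyond the smaller sample or the genes added.

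The calls over 24 livers of Srm (RNA and RPF), Odc1 (RNA) and, in the alternatives added after seeing the data, Amd1 (RNA over all columns, log2 1.33 to 1.51) were kept in every alternative run. Oaz1 RNA was lost with run 340 alone (adjusted p 0.0502), and the Oaz1 RNA call in Aco1+/+ with run 340 alone, over all columns and with DESeq2 (adjusted p up to 0.597). Odc1 footprints (adjusted p 0.0542 to 0.0940) were lost without any one of 13 livers: Aco1+/+ ZT5 replicate 1 and ZT12 replicate 1, Aco1-/- ZT5 replicates 1 and 3 and ZT12 replicates 1 and 3, Ireb2+/+ ZT5 replicate 1 and ZT12 replicates 1 and 3, and Ireb2-/- ZT5 replicates 1 and 2 and ZT12 replicates 1 and 3. They were also lost with the replicate block and with run 340 alone (log2 0.33, adjusted p 0.355). Azin1 RNA (0.0509 to 0.0935) was lost without any of 11: Aco1+/+ ZT5 replicates 1 and 2 and ZT12 replicate 2, Aco1-/- ZT5 replicates 1 and 2 and ZT12 replicate 2, Ireb2+/+ ZT5 replicate 3 and ZT12 replicate 3, and Ireb2-/- ZT5 replicates 1 and 2 and ZT12 replicate 1, and with the replicate block and over all columns. Azin1 footprints (0.0524 to 0.112) were kept without any one of Aco1+/+ ZT5 replicate 3 and ZT12 replicate 1, Aco1-/- ZT5 replicate 3 and ZT12 replicate 2, Ireb2+/+ ZT5 replicate 3 and ZT12 replicates 1 and 2, or Ireb2-/- ZT5 replicate 1, and lost without any other liver, with no filter on low counts and with run 340 alone (adjusted p up to 0.129). Sat1 RNA (0.0520 to 0.157) was kept without any one of Aco1+/+ ZT5 replicate 3 and ZT12 replicate 3, Aco1-/- ZT5 replicate 1 and ZT12 replicates 1 and 3, Ireb2+/+ ZT5 replicate 3 and ZT12 replicate 3, or Ireb2-/- ZT5 replicate 3 and ZT12 replicate 3, lost without any other liver, and lost with DESeq2, with run 340 alone and over all columns. Calls gained without a single liver were TE of Oaz1 in Aco1-/- (log2 1.34, adjusted p 0.0125, without ZT12 replicate 3) and in Ireb2+/+ (1.11, 0.0444, without ZT5 replicate 2), footprints of Azin1 in Aco1+/+ (0.66, 0.0443, without ZT5 replicate 3) and in Aco1-/- (0.65 each, 0.0479 without ZT12 replicate 2 and 0.0375 without ZT5 replicate 3), and footprints of Sat1 in Ireb2-/- (0.71, 0.0448, without ZT12 replicate 3).

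The replicate numbers do not pair the livers: deviations of same-numbered livers correlated at a median of -0.005 (RNA) and 0.025 (RPF) in the Aco1 line and 0.015 and 0.038 in the Ireb2 line. With the replicate block, 4 genes were called for RNA and 2 for RPFs over 24 livers, the calls lost being Azin1 RNA and Odc1 footprints. Depth limits Smox, Oaz2, Sms and Amd1, and the 5' UTR ratios of Odc1, Oaz1 and Srm.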
